A study of Sus scrofa with 8 samples.

Results

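The genes described here are TGFB1, TGFBR1, FAP, VIM and PDGFRB, a ligand and a receptor of the TGF-beta pathway and 3 markers of fibroblasts and other mesenchymal cells, in pig heart muscle after infarction with and without glial growth factor 2 (GGF2). All probe sets whose only symbol in the platform annotation is one of these 5 names were taken, which gave 9 of the 23999 probe sets tested and 5 of the 6765 genes named on the array. TGFB1 and PDGFRB have 2 probe sets each, TGFBR1 has 3, and FAP and VIM have 1 each. The genes were chosen by name with the treatment differences of these same 8 arrays already known, so their values are given as a description, and nothing is supported by the fact that they differ.

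TGF-beta is secreted in a latent form that is held in the extracellular matrix. Once released, the ligand TGFB1 binds a type II receptor that recruits and phosphorylates the type I receptor TGFBR1, which passes the signal on to SMAD proteins. In the injured heart this pathway is known for turning resident fibroblasts into matrix-producing myofibroblasts. FAP, a cell surface protease, is a marker of such activated fibroblasts. VIM (vimentin) is the intermediate filament protein of mesenchymal cells, including fibroblasts, endothelium and leukocytes, and PDGFRB is a receptor for platelet-derived growth factors on pericytes, smooth muscle cells and fibroblasts.

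GGF2 is an isoform of neuregulin-1, which signals to heart muscle cells through ERBB receptors. Castrated male Yorkshire pigs, younger than 1 year and with a mean weight of 54.5 kg, all had a myocardial infarction, and left ventricular muscle away from the infarct was sampled. Untreated animals (n = 3) were compared with animals that received GGF2 at 0.67 mg/kg per infusion for 4 weeks (low dose, n = 3) or at 2.0 mg/kg per infusion for 4 weeks (high dose, n = 2). No uninfarcted animals are among the samples, and each array is 1 animal.

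Levels are RMA values on the log2 scale, so a difference of 1 is a doubling. Correlations between arrays lay from 0.981 to 0.994. All 12 measured cardiomyocyte markers, such as the myosin chains MYH7 and MYL2, were far above the arrays' lower quartile, here taken as close to background (3.77 on average). In the limma fit over all probe sets, 0 probe sets passed an adjusted p of 0.05 at the low dose against untreated and 0 at the high dose against untreated (0% called in each), while 1081 and 1913 had an unadjusted p under 0.05. Between the doses 6 passed (0.0250% called), none of them a probe set of the 5 genes. With 2 or 3 animals a group, the number of arrays limits the precision of every value below.

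At the high dose, TGFBR1, FAP and VIM were lower in both animals than in any untreated animal, and PDGFRB and TGFB1 overlapped the untreated range. These were 3 of the 9 probe sets, where 12.0% of all probe sets were lower without overlap and 14.7% were higher without overlap in that comparison. The count was 5 when untreated replicate 3 was left out, because the brighter probe sets of TGFB1 and PDGFRB then also lay below. At the low dose 1 of the 9 probe sets, the brighter one of TGFB1, was higher in each animal than in any untreated animal, and 0 were lower. Of all probe sets, 5.23% were higher and 3.87% lower without overlap at the low dose. By the labels 3 pairs of animals carry neighbouring tag numbers: untreated replicates 1 and 3, both high-dose animals, and 1 pair across groups, untreated replicate 2 and low-dose replicate 1. What the tags stand for is not given in the labels. With the pair across groups left out, 2 probe sets were higher at the low dose, those of TGFB1 (brighter) and FAP, and 1 was lower, the dimmer one of PDGFRB. Separation without overlap is easier to reach with fewer animals. The shares of all probe sets are not given for the counts with animals left out, so those counts have no background beside them. For the high dose, whose 2 animals carry neighbouring tag numbers, tag and dose cannot be told apart. By limma 0 of the 9 probe sets passed the adjusted p in any of the 3 comparisons; the counts at an unadjusted p under 0.05 were 1 at the low dose, 3 at the high dose and 4 between the doses, beside 1081, 1913 and 2455 of all 23999 probe sets.

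**Figure D1:**
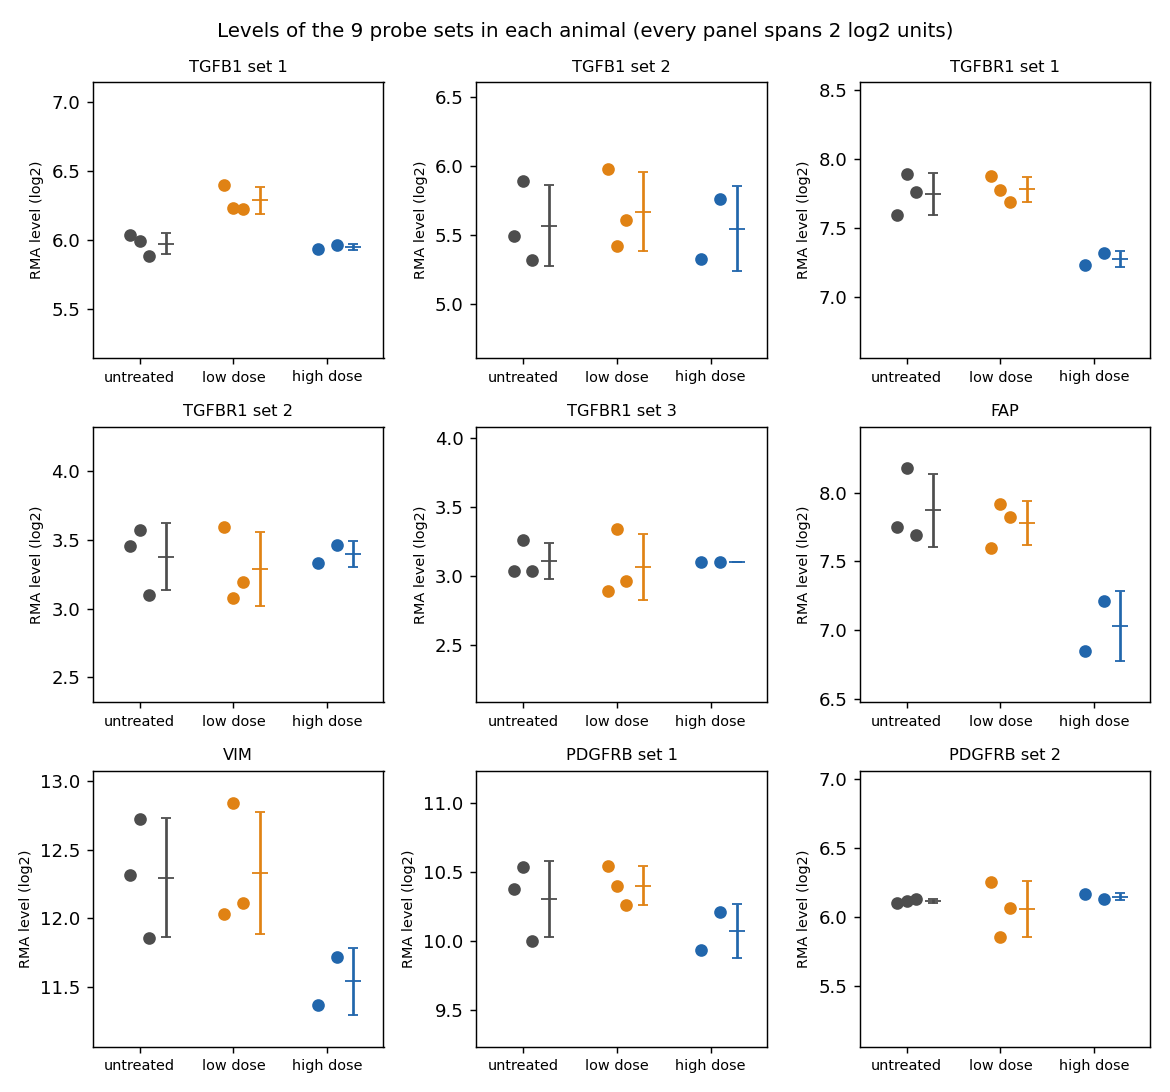
Levels (log2 RMA values, y axis) of the 9 probe sets of the 5 genes in each animal, by treatment group (x axis); points are animals, and the bar beside them is the group mean ± SD. For each gene set 1 is the brightest probe set. The high-dose animals lie below all others for TGFBR1 set 1, FAP and VIM, and the low-dose animals lie above all others for TGFB1 set 1.

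The ligand TGFB1 was the only one of the 5 genes whose low-dose animals stood apart from the untreated ones. On its brighter probe set (Ssc.76.1.S1_a_at) the level was 6.03, 5.99 and 5.88 in the untreated animals, 6.40, 6.23 and 6.22 at the low dose, and 5.93 and 5.96 at the high dose. The 3 low-dose animals were thus the 3 highest of the 8, and the high-dose animals lay within the untreated range. The 3 untreated animals averaged 5.97 ± 0.08 (SD), the 3 low-dose animals 6.29 ± 0.10 and the 2 high-dose animals 5.94 ± 0.02. The low dose differed from untreated by 0.32 ± 0.10 (SE) and the high dose by -0.03 ± 0.11, with a 95% interval from -0.29 to 0.24.

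The second TGFB1 probe set (Ssc.76.3.S1_a_at), which shares the accession of the first, did not separate the groups. Its levels ran from 5.32 to 5.89 in untreated animals, from 5.42 to 5.98 at the low dose, and were 5.33 and 5.76 at the high dose. The low-dose difference there was 0.10 ± 0.20 (SE), and its sign turned without untreated replicate 3 (-0.02) or low-dose replicate 1 (-0.06). The 2 probe sets correlated with r = 0.46 (rho = 0.57) over the 8 animals. Replicate spread was also unlike: the within-group SD was 0.08 on the brighter probe set, at the 6.17th percentile of all probe sets, and 0.29 on the other.

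Measures of RNA integrity set each dose apart from the untreated animals in single control families, but not in their average. The gap between the 3' and 5' probe sets of one actin control was 4.95 to 5.35 log2 units in untreated animals, 5.52 to 5.94 at the low dose and 4.97 to 5.11 at the high dose, so the low-dose animals were the 3 highest here as well. Averaged over the 4 actin and GAPDH control families the gap was 2.63 to 3.07, 2.84 to 3.28 and 2.66 to 2.73, so that the untreated range overlapped both doses while the 2 doses did not overlap each other. In one GAPDH control the gap was 1.38 to 1.90 in untreated animals, 1.54 to 1.92 at the low dose, and 1.34 and 1.32 at the high dose, where both animals were the lowest of the 8. The part of RNA integrity in the TGFB1 difference at the low dose, in the TGFBR1, FAP and VIM differences at the high dose and in those between the doses was not tested.

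Among the other ligands and the proteins that hold or release latent TGF-beta, 12 of the 24 listed genes were measured, and 0 passed in any comparison. At the high dose 6 were higher and 6 lower, with a median difference of 0.01, beside 0.01 over all probe sets. The isoform TGFB2 differed by 0.04 and TGFB3 by -0.25 on their brightest probe sets at the high dose, and by -0.27 and -0.23 at the low dose. THBS1 (thrombospondin-1), a matrix glycoprotein that can release latent TGF-beta, had the largest difference of the group. It measured 10.23, 11.44 and 9.77 in untreated animals, 11.38, 10.51 and 11.07 at the low dose, and 11.58 and 11.20 at the high dose. The untreated animals covered most of that span, and the high-dose difference of 0.91 ± 0.45 (SE) had a limma adjusted p = 0.672. A dimmer THBS1 probe set differed by 1.56 ± 0.61 with no overlap (limma adjusted p = 0.564), and the other 3 differed by 0.74, 0.68 and -0.09. The next in size were the bone morphogenetic protein BMP4 at -0.49 ± 0.25 and the muscle growth inhibitor MSTN (myostatin) at -0.43 ± 0.34, whose mean of 3.72 was close to background.

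The receptor TGFBR1 was lower at the high dose on its only probe set above background (Ssc.2874.1.S1_at). TGFBR1 measured 7.59, 7.89 and 7.76 in untreated animals, 7.87, 7.78 and 7.69 at the low dose, and 7.23 and 7.31 at the high dose. Untreated and low-dose animals mixed, and both high-dose animals lay below all of them with a gap of 0.28, larger than the within-group SD of 0.11. The high dose differed from untreated by -0.47 ± 0.13 (SE), a level 1.39-fold lower, and from the low dose by -0.51 ± 0.13, while the low dose differed from untreated by 0.03 ± 0.11. The high-dose difference stood at the 4.66th percentile of the differences of all probe sets, counted from the lowest. The other TGFBR1 probe sets (Ssc.23794.1.A1_at and Ssc.23794.1.S1_at), built on another accession, were below the lower quartile on all 8 arrays, with means of 3.35 and 3.09. They hold no order between the groups and do not bear on the difference.

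The receptors of the family did not share that difference as a group. Of the 12 listed, 9 were measured, TGFBR1 among them, and 0 passed. At the high dose 5 were higher and 4 lower, with a median of 0.03. Without overlap 1 receptor, TGFBR1, was lower and 1 was higher, near the 12.0% and 14.7% of all probe sets. Between the doses 2 receptors were lower without overlap, TGFBR1 and BMPR1A, and 1 was higher, beside 13.0% and 13.2% of all probe sets. BMPR1A differed there by -0.48 ± 0.16 (limma adjusted p = 0.375). The endothelial co-receptor ENG (endoglin) was higher without overlap, with 5.58 to 5.67 in untreated animals and 5.89 and 5.93 at the high dose, a difference of 0.27 ± 0.15 (limma adjusted p = 0.716). The activin type I receptor ACVR1B differed by -0.36 ± 0.26. The co-receptor TGFBR3 was close to background, at 3.12 on average in the untreated animals. The type II receptor TGFBR2 is not analysed here.

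Downstream of the receptor, 9 of 23 listed SMADs and modulators were measured, and 0 passed. At the high dose 8 of the 9 were lower, with a median of -0.17, beside 0.01 over all probe sets. Of these 1, the common partner SMAD4, was lower without overlap, near the 12.0% of all probe sets. SMAD4 measured 10.01 and 10.16 against 10.21 to 10.33 in untreated animals, a difference of -0.17 ± 0.15. The signal carrier SMAD3 differed by -0.06 ± 0.25 and SMAD1, which carries bone morphogenetic protein signals, by -0.37 ± 0.22. The largest differences were those of TGIF1, a repressor of SMAD-driven transcription, at -0.62 ± 0.31, and of the decoy receptor BAMBI at -0.46 ± 0.22. Their dimmer probe sets were at -0.14 and 0.09. At the low dose 6 of the 9 were lower, with a median of -0.07.

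Genes that TGF-beta is known to induce showed no common direction. Of 24 listed, 15 were measured and 0 passed; at the high dose 8 were higher and 7 lower, with a median of 0.01. Smooth muscle actin, ACTA2, the usual marker of myofibroblasts, measured 11.35, 11.58 and 10.26 in untreated animals, 10.55, 12.54 and 10.96 at the low dose, and 10.69 and 11.04 at the high dose. The high-dose animals lay inside the untreated range, and the difference of -0.20 ± 0.57 was smaller than its error. The matrix protein CILP differed by -0.39 ± 0.48, the metalloproteinase inhibitor TIMP3 by 0.36 ± 0.40 and the cell cycle inhibitor CDKN1A by -0.29 ± 0.26. Dimmer probe sets were higher without overlap for TIMP3, at 0.82 ± 0.34 (limma adjusted p = 0.595), and for CILP, at 0.10 ± 0.12, the opposite sign to its brighter one.

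FAP had the largest high-dose difference of the 5 genes, ahead of VIM by less than its error; after renewed quantile normalization (-0.79 against -0.83) or without untreated replicate 3 (-0.93 against -0.97) VIM was ahead. Its probe set (Ssc.4543.1.S1_at) measured 7.75, 8.18 and 7.69 in untreated animals, 7.60, 7.91 and 7.82 at the low dose, and 6.85 and 7.21 at the high dose. The untreated and low-dose ranges overlap throughout, and both high-dose animals lie below them. The group means were 7.87 ± 0.27 (SD, n = 3), 7.78 ± 0.16 (n = 3) and 7.03 ± 0.26 (n = 2). The high dose differed from untreated by -0.84 ± 0.19 (SE), a level 1.79-fold lower, and from the low dose by -0.74 ± 0.19, while the low dose differed from untreated by -0.09 ± 0.17. Leaving out single animals or changing the fit moved the high-dose difference between -1.02 and -0.66.

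VIM had a similar shape with a wider spread between animals. Its probe set (Ssc.11131.1.S1_at) measured 12.31, 12.72 and 11.86 in untreated animals, 12.03, 12.84 and 12.11 at the low dose, and 11.37 and 11.72 at the high dose. Both high-dose animals were the lowest of the 8, but high-dose replicate 2 lay only 0.14 below untreated replicate 3, less than the within-group SD of 0.41. The high dose differed from untreated by -0.75 ± 0.30 (SE) and from the low dose by -0.78 ± 0.30, and the low dose differed from untreated by 0.03 ± 0.27. Among all probe sets the VIM and FAP differences at the high dose stood at the 1.65th and 1.20th percentile, counted from the lowest.

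**Figure D2:**
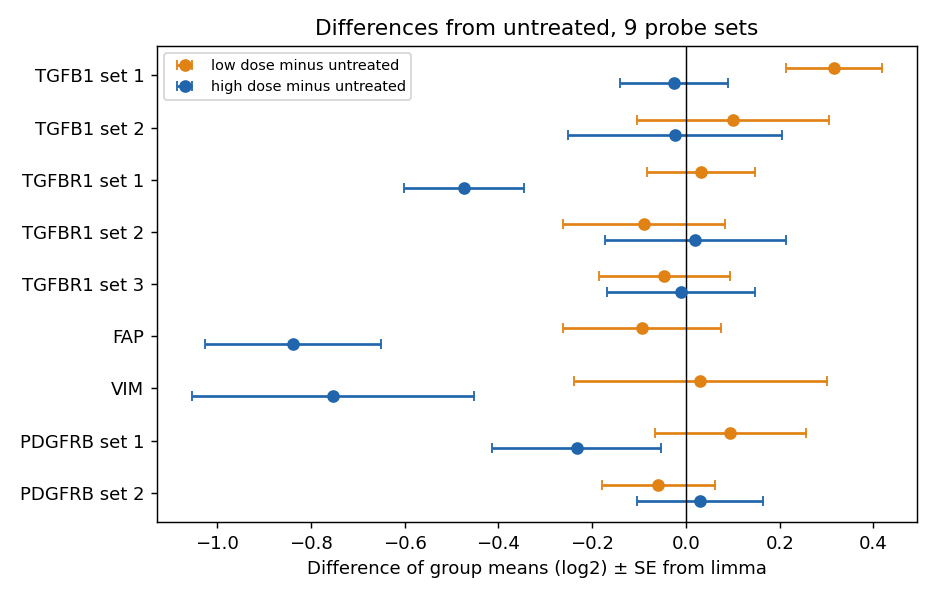
Differences of group means (log2, x axis) with their standard errors from limma, for each of the 9 probe sets (y axis); orange is low dose minus untreated and blue is high dose minus untreated. Both series share the untreated animals. FAP (-0.84), VIM (-0.75) and the brighter TGFBR1 probe set (-0.47) lie lowest at the high dose, and the brighter TGFB1 probe set (0.32) lies highest at the low dose.

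PDGFRB showed a smaller difference that did not clear the spread of the untreated animals. On the brighter probe set (Ssc.9595.1.S1_at) the level was 10.38, 10.54 and 10.00 in untreated animals, 10.54, 10.40 and 10.26 at the low dose, and 9.93 and 10.21 at the high dose. Untreated replicate 3 lay between the 2 high-dose animals. The high dose differed from untreated by -0.23 ± 0.18 (SE), with a 95% interval from -0.64 to 0.18, and from the low dose by -0.33 ± 0.18. The dimmer PDGFRB probe set (Ssc.12224.1.A1_at) measured 6.10 to 6.13 in untreated animals, 5.86 to 6.26 at the low dose, and 6.13 and 6.17 at the high dose, with a difference of 0.03 ± 0.13. The 2 probe sets did not follow each other over the 8 animals (r = -0.09, rho = -0.17).

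The high-dose animals also lay below the low-dose animals on the brightest probe set of each of the 5 genes. These were 5 of the 9 probe sets, where 13.0% of all probe sets were lower and 13.2% higher without overlap. For TGFB1 this followed from its higher level at the low dose, with a difference of -0.34 ± 0.11 (SE), since the untreated and high-dose animals overlapped. High-dose replicate 1 was the lowest of the 8 animals for TGFBR1, FAP, VIM and PDGFRB. Among the untreated animals, replicate 2 was the highest for TGFBR1, FAP, VIM and PDGFRB.

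The animal-to-animal pattern was shared most closely by FAP and VIM. Over the 8 animals their levels correlated with r = 0.90, and with r = 0.83 once each value was taken relative to its group mean. TGFBR1 and FAP had r = 0.88 over all animals and 0.42 within groups, a looser relation among animals of the same group. TGFB1 had r = 0.31 with FAP and 0.37 with VIM, and its closest relation was with PDGFRB, at 0.64 over all animals and 0.76 within groups. These correlations describe 8 animals of 3 groups, and the points share their arrays and their normalization.

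**Figure D3:**
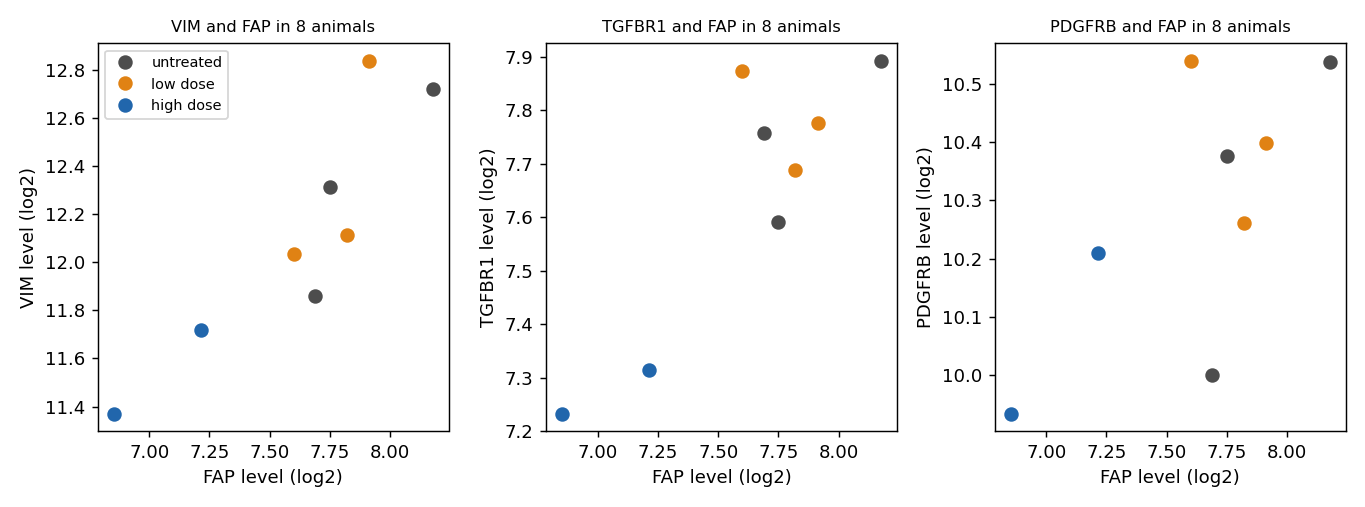
Level of VIM, TGFBR1 and PDGFRB (log2, y axes) against the level of FAP (log2, x axes) on the brightest probe sets; each point is 1 animal, coloured by group. The 2 high-dose animals are lowest on both axes for VIM and TGFBR1, while for PDGFRB untreated replicate 3 lies between them on the y axis.

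By the same measure, the genes whose levels were most like each of the 5 were searched among 8516 or 8517 named probe sets above background. With so many candidates and 8 animals the names are given as a description. The closest to FAP were the proteoglycan VCAN (versican; r = 0.98), the coat protein COPZ2 (0.98) and the kinase subunit PIK3CG (0.97). Closest to VIM were the actin-binding CAP1 (0.98), the chemokine CXCL12 (0.97) and the collagen-degrading protease CTSK (cathepsin K; 0.97). TGFBR1 was followed by TMEM87A (0.98), the secreted protein SRPX2 (0.97) and KANK3 (0.96), TGFB1 by CKAP4 (0.97), the lysyl hydroxylase PLOD3 (0.95) and the pore-forming protein GSDMD (0.94), and PDGFRB by the matrix protein VWA1 (0.95), DDX11 (0.95) and ACOT7 (0.94).

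The fibroblast marker list, to which FAP and VIM belong, was lower at the high dose for most of its members. Of 22 listed genes 17 were measured, and by limma 0 passed over all probe sets, with 9 at an unadjusted p under 0.05 at the high dose (1913 of all 23999 probe sets). At the high dose 14 were lower and 3 higher, 9 were lower and 1 higher without overlap (12.0% and 14.7% of all probe sets), and the median difference was -0.74, beside 0.01 over all probe sets. With the mean of each gene's probe sets in place of the brightest one the median was -0.44. Between the doses 15 of the 17 were lower at the high dose, 11 of them without overlap (13.0% of all probe sets), with a median of -0.68. At the low dose 10 were lower and 7 higher than untreated, with a median of -0.05. The list was put together with these results known, and its counts do not add evidence for FAP or VIM.

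Within that list the largest differences at the high dose were those of the matrix protein POSTN (periostin), at -2.46 ± 0.33 (limma adjusted p = 0.104), the surface glycoprotein THY1, at -1.36 ± 0.27 (limma adjusted p = 0.26), and the matrix protein FN1 (fibronectin), at -1.12 ± 0.36 (limma adjusted p = 0.466). THY1 measured 9.90, 10.06 and 9.66 in untreated animals, 9.72, 10.13 and 9.38 at the low dose, and 8.14 and 8.89 at the high dose. As with FAP, the untreated and low-dose animals mixed and both high-dose animals were below them. A second THY1 probe set differed by -0.93 ± 0.16, also without overlap, and the dimmest by 0.02. The other FN1 probe sets were dim, with means of 4.25, 3.66 and 2.79. They differed by 0.07, -0.11 and 0.17, the last without overlap. The other POSTN probe set, with a mean of 2.91, differed by -0.04. The collagen COL3A1 was the 1 gene whose brightest probe set was higher without overlap, at 0.83 ± 0.38.

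**Figure D4:**
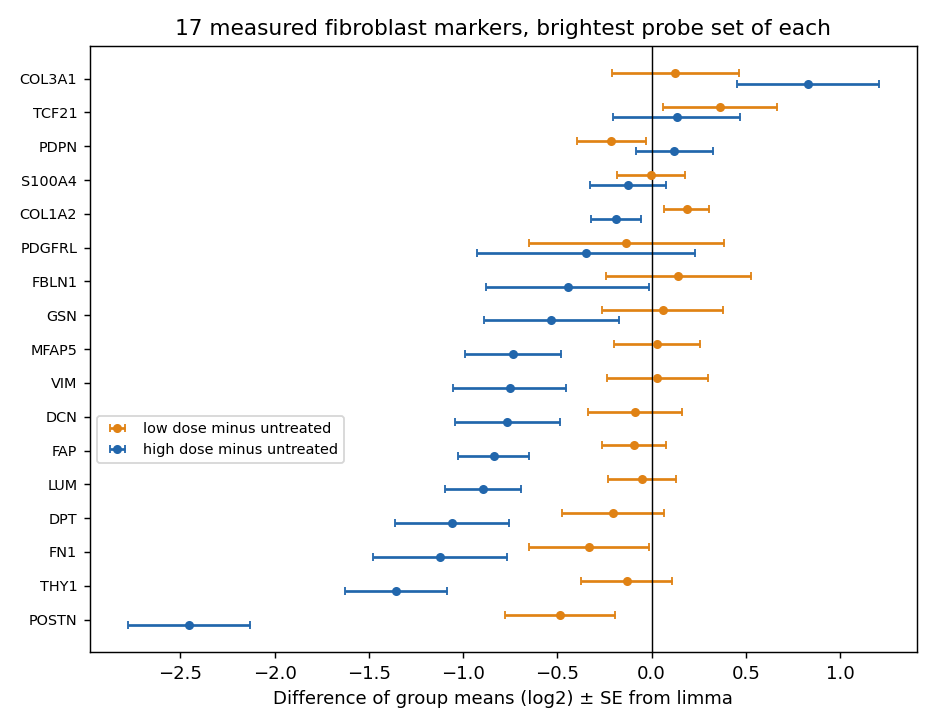
Differences of group means (log2, x axis) with limma standard errors for the 17 measured fibroblast markers (y axis), each gene on its brightest probe set; orange is low dose minus untreated and blue is high dose minus untreated. At the high dose 14 of 17 lie below 0, with FAP and VIM in the middle of that range and POSTN lowest, while the low-dose values lie around 0.

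FAP and VIM were also set against the rest of that list. The mean level of the 15 other fibroblast markers averaged 8.87 ± 0.39 (SD) over the 3 untreated, 8.82 ± 0.22 over the 3 low-dose and 8.27 ± 0.21 over the 2 high-dose animals. Relative to that mean, the high dose differed from untreated by -0.24 for FAP and -0.16 for VIM, by 0.12 for TGFBR1, by 0.36 for PDGFRB and by 0.57 for TGFB1. For FAP the relative values were -1.11, -1.09 and -0.80 in untreated animals (SD 0.17), -1.13, -1.16 and -0.84 at the low dose, and -1.27 and -1.21 at the high dose. For VIM they were 3.46, 3.45 and 3.37 in untreated animals (SD 0.05), 3.30, 3.76 and 3.45 at the low dose, and 3.25 and 3.29 at the high dose. Both high-dose animals thus stayed the lowest of the 8 for both genes, by small margins and with no test made. For TGFB1 and TGFBR1 the untreated SD of the relative values was 0.34. In whole tissue, fewer fibroblasts and less RNA of these genes in each fibroblast cannot be told apart.

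Other filament and transcription factor genes of mesenchymal cells were not lower as a group. Of 13 listed 7 were measured and 0 passed; at the high dose 4 were higher and 3 lower, with a median of 0.01. The muscle filament protein DES (desmin) differed by 0.05 ± 0.14. SYNM (synemin), which joins desmin and vimentin filaments, was higher without overlap at the high dose, at 10.99 and 11.23 against 10.05 to 10.56 in untreated animals, a difference of 0.75 ± 0.29 (limma adjusted p = 0.566). SNAI1, a transcription factor of the epithelial-to-mesenchymal change, was higher by 0.22 ± 0.13, also without overlap, on a dim probe set with a mean of 4.72. Of the 7 genes, 2 were thus higher and 1, VIM, lower without overlap, beside 14.7% and 12.0% of all probe sets. In the PDGF family 2 of 7 listed genes were measured, PDGFRB itself and the receptor-like PDGFRL at -0.35 ± 0.58.

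Markers of other cell types that carry VIM or PDGFRB were also measured. Macrophage markers were lower at the high dose in 7 of 9 measured genes, 6 of them without overlap (12.0% of all probe sets), with a median of -0.43. By limma 0 passed, and 5 had an unadjusted p under 0.05, as had 1913 of all 23999 probe sets. Their mean level was 6.36 to 6.81 in untreated animals, 6.37 to 6.90 at the low dose, and 6.02 and 6.05 at the high dose. As for FAP and VIM, both high-dose animals were the lowest of the 8. The macrophage receptors MRC1 and CD163 were at -1.17 and -0.93, and CD14 was at 0.16. The part of these cells in the VIM difference was not tested.

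Markers of pericytes and smooth muscle, cell types known for PDGFRB, did not have one direction. Of 8 measured genes 5 were higher and 3 lower at the high dose, with a median of 0.12. The pericyte gene RGS5 measured 11.52, 10.94 and 10.57 in untreated animals, 10.94, 11.25 and 10.82 at the low dose, and 9.61 and 10.56 at the high dose, lower than the untreated animals by a gap of 0.01. Its difference was -0.93 ± 0.33 (limma adjusted p = 0.526). The smooth muscle genes CNN1 and SMTN were higher without overlap, at 1.99 ± 0.62 (limma adjusted p = 0.454) and 0.43 ± 0.11 (limma adjusted p = 0.4). Of the 8 genes, 2 were thus higher and 1, RGS5, lower without overlap, beside 14.7% and 12.0% of all probe sets. At the low dose 7 of the 8 were higher, with a median of 0.28.

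Endothelial markers were lower at the high dose in 8 of 11 genes, with a median of -0.08. Without overlap 4 were lower and 2 higher, the receptors TIE1 and FLT1, beside 12.0% and 14.7% of all probe sets. FLT1 was close to background, with a mean of 3.95. The mean level of the endothelial list, 6.41 and 6.67 at the high dose, overlapped the 6.65 to 6.77 of untreated animals. At the low dose 3 of the 11, CDH5, ERG and KDR, were lower without overlap and 0 higher, beside 3.87% and 5.23% of all probe sets. KDR was close to background, with a mean of 3.62. Lymphocyte markers had a median of -0.02 over 7 genes, and 2 of these 7 were close to background. Epicardial and mesothelial markers were higher at the high dose in 4 of 4 genes, with a median of 0.22. At the low dose 3 of the 4 were higher, with a median of 0.32, and 2 were higher without overlap (5.23% of all probe sets). These were the keratins KRT8, by 2.21 ± 0.28 (limma adjusted p = 0.795), and KRT19, by 0.45 ± 0.16 (limma adjusted p = 0.998). KRT19 was close to background, with a mean of 3.78. KRT18 differed by 0.18 ± 0.15 and WT1 by -0.11 ± 0.14, both with overlap. The mean level of this list was 4.31 to 4.57 in untreated animals, 4.97 to 5.25 at the low dose, and 4.90 and 4.56 at the high dose. As for TGFB1, the 3 low-dose animals were the highest of the 8, with KRT8 by far the largest low-dose difference of the 4 genes. The part of these cells in the TGFB1 difference was not tested. Cardiomyocyte markers had a median of 0.04 over 12 genes, with single genes between -0.10 and 0.19. None of these genes passed over all probe sets.

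**Figure D5:**
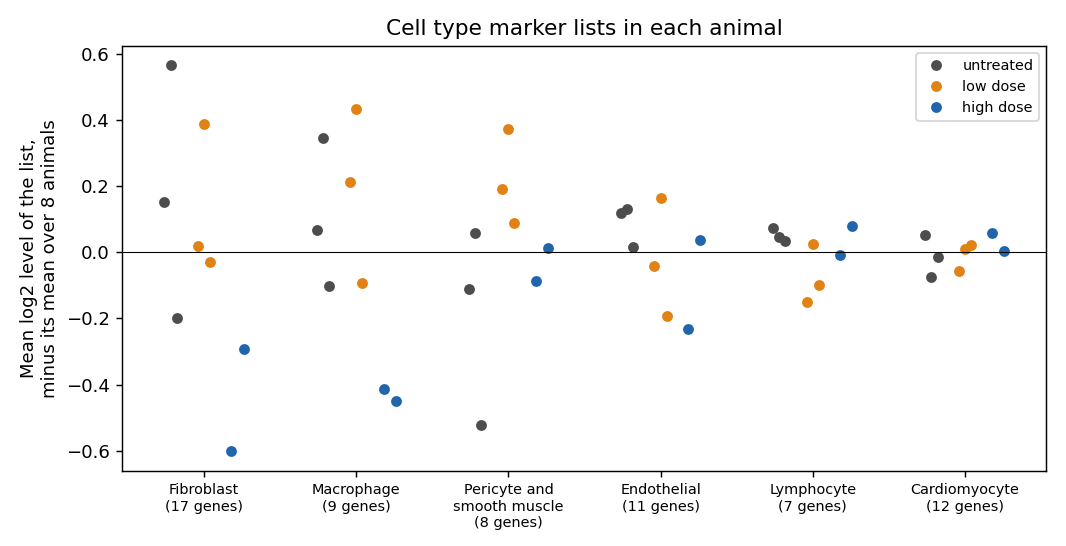
Mean log2 level of each list of cell type markers in each animal, minus its mean over the 8 animals (y axis), for 6 lists (x axis); points are animals coloured by group. The high-dose animals lie lowest for the fibroblast and macrophage lists and close to 0 for the cardiomyocyte list. For the lymphocyte list high-dose replicate 2 lies highest, by a small margin, and high-dose replicate 1 lies among the other animals.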

How the data were processed

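The deposited table holds the authors' log2 values of 24123 probe sets on 8 Affymetrix porcine arrays, 1 for each animal. The submitters' processing notes name RMA and Partek 6.6 without further settings. RMA equalises the arrays' distributions, so a change shared by most genes would be removed. Deposited log2 values ran from 2.13 to 15.01. Control probe sets (124) were not tested. Symbols came from the supplied platform annotation: 10069 probe sets carried 1 symbol, 198 several and 13732 none. No sequences or coordinates are given.

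With limma 3.58.1 (R 4.3.3), group means were fitted to all 8 arrays together (5 residual and 3.50 prior degrees of freedom), with Benjamini-Hochberg adjustment over 23999 probe sets, and was tested on simulated data. Errors of differences are moderated standard errors. Lists use the brightest probe set of each gene; 117 of 189 genes in 13 lists were measured. The members, lists and rules were chosen with earlier results of these data known. Named genes are the members, the 3 of each pathway list with the largest high-dose difference, genes of fixed role, and the 3 most like each member; other cell type markers and COL3A1 were named after their values were seen. The replicate numbers follow sample order and pair nothing. Alternatives were other variance priors, filters, scalings, arrays and weights.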

Additional observations from a re-analysis of the deposited data

How the results depend on the processing

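The 9 probe sets' differences kept their direction in 389 of 426 values under the alternatives, and 0 passed. Many of these values could not change direction. Another variance prior, the filter for dim probe sets and a fit of only the compared groups leave a difference of group means as it was. So does leaving out an animal of the group not compared. The count of kept directions is therefore no measure of stability. For TGFBR1 (brighter probe set), FAP, VIM and PDGFRB (brighter probe set) at the high dose, no alternative turned the sign. The ranges were -0.55 to -0.40, -1.02 to -0.66, -0.97 to -0.54 and -0.39 to -0.10. For TGFBR1, FAP and VIM every high-dose animal lay below every untreated one, so leaving out an animal could not turn the sign. Their kept sign is no support for these differences. The low-dose TGFB1 difference ran from 0.26 to 0.35 on the brighter probe set. The low-dose differences of FAP, VIM and the brighter TGFBR1 and PDGFRB probe sets, all near 0, took both signs (FAP -0.18 to 0.15). The 2 probe sets of TGFBR1 close to background could not be used where dim probe sets were left out.

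Counts over all probe sets moved more; the causes were not tested. For the high dose against untreated (0) they were 4 with an intensity trend, 7 with a robust prior, 3 with array medians subtracted, 9 after renewed quantile normalization, 2 with only the 2 groups compared, 13 with array weights, 55 without the pair of animals that have neighbouring tag numbers across groups, and 0 to 19 when single animals were left out, the highest without untreated replicate 2. For the high against the low dose (6) they were 1 with dim probe sets left out, 0 with only these groups, 10 with array weights, 12 without those 2 animals, and 0 to 7 with single animals left out. For the low dose against untreated (0) the count was 1 without those 2 animals. Of the counts of probe sets without overlap, whose alternatives were chosen after seeing the data, that at the high dose against untreated (3) ran from 3 to 5 with single animals left out, and at the low dose those higher (1) and lower (0) were 2 and 1 without the 2 animals; those lower ran from 0 to 1 with single animals left out. Separation is easier to reach with fewer animals, and no shares of all probe sets are given for these alternative counts. No paired analysis was possible because the labels hold no replicate numbers.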
